A study of Homo sapiens with 6 samples.

Results

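The 39 genes described here encode the enzymes and lipid droplet proteins that make, elongate, activate, esterify, store and oxidize fatty acids. They were taken by gene symbol, matched to Ensembl identifiers through GENCODE release 29, from 6 RNA-Seq tables that held 19655 genes after repeated identifiers were merged. All 39 were listed in the tables, and 38 passed the limit of a mean of 0.5 FPKM over the 6 libraries (fragments mapped to a gene, scaled to transcript length and library size) that a gene needed to be tested. ACACB, the mitochondrial isoform of acetyl-CoA carboxylase, stayed below that limit, at 0.440 and 0.458 FPKM in the shNT libraries, 0.479 and 0.351 FPKM with shPcyt2-1, and 0.641 and 0.469 FPKM with shPcyt2-2.

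SW480 cells, a long-established line from a human colorectal cancer (CRC), were used throughout, and the RNA-Seq was done to look for mechanisms that link PCYT2 to metastasis. By the methods, hairpins against PCYT2 were delivered by a virus and the infected cells were selected with puromycin. The methods call the control of the RNA-Seq a vector control and do not describe how the shNT cells were made. The lines were grown in high-glucose medium with serum. shNT, the group with a nontargeting hairpin, had 2 libraries, and each of the PCYT2 knockdown groups, shPcyt2-1 and shPcyt2-2, also had 2 libraries. Nothing in the labels or methods says that the 2 libraries of a group came from separate cultures, so p-values measure the spread between these libraries only, which may be technical. The tables listed between 18806 and 19209 distinct identifiers per library, and the values summed to between 396467 and 402612 FPKM. How many reads stand behind them is not known, so the values carry no counting interval, and having 2 libraries a group sets the precision.

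Cells build fatty acids from acetyl-CoA, lengthen and desaturate them, and activate them to acyl-CoA, which either enters mitochondria for β-oxidation or is esterified onto glycerol-3-phosphate. Esterification leads through phosphatidic acid to diacylglycerol, the branch point from which cells make triacylglycerol for lipid droplets or, through the CDP-ethanolamine and CDP-choline branches, phosphatidylethanolamine and phosphatidylcholine. PCYT2 makes CDP-ethanolamine, and the phosphoethanolamine unit of that compound is then joined to diacylglycerol, which is why the genes that supply and use diacylglycerol are of interest when PCYT2 is knocked down.

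PCYT2 (ENSG00000185813) itself was at 11.6 and 13.8 FPKM in the shNT libraries, 7.11 and 7.36 FPKM with shPcyt2-1, and 6.71 and 6.18 FPKM with shPcyt2-2. Both shNT libraries exceeded all 4 knockdown libraries, so the level was reduced but not lost. In a limma fit with 3 groups over all 12756 tested genes, PCYT2 fell by 0.73 with shPcyt2-1 and by 0.88 with shPcyt2-2 on the log2(FPKM + 1) scale (SE 0.10 for both, limma adjusted p = 0.00205 and 0.00261). The difference of the hairpins in PCYT2, -0.15, did not pass the test (SE 0.10, limma adjusted p = 0.309). Whether reads were counted by strand is not stated in the sources used here, and 28.1% of the exon bases of PCYT2 overlap another gene, so reads of the overlapping genes cannot be told apart there. Among the 39 genes, such overlap passed 10% of exon bases in 7, LPCAT3 (65.6%), AGPAT1 (30.2%), PLIN3 (17.8%), LPIN3 (13.5%), CPT2 (12.0%), DGAT1 (11.1%) and PNPLA2 (10.4%).

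With shPcyt2-1, 14 of the 38 tested genes (36.8%) changed by limma at an adjusted p under 0.05, of which 11 were higher and 3 lower, against 26.7% of all tested genes. The genes that rose were ACACA, ELOVL5, ELOVL6, SCD, ACSL3, GPAM, GPAT3, GPAT4, LPCAT3, PLIN2 and HADHB, and those that fell were AGPAT2, LPCAT4 and ACADVL. Of all tested genes, 16.5% rose and 10.1% fell. At an unadjusted p under 0.05, 17 of the 38 genes passed, against 40.9% of all tested genes. The median log2 fold change was 0.06 over the 38 genes and 0.0669 over all tested genes. Without shPcyt2-1 replicate 1, 6 genes were called, where the share of all tested genes fell to 8.99%, and without shNT replicate 2, 8 genes were called, where it fell to 13.6%. Scaling the libraries by their median ratio instead left 7 higher and 3 lower genes, and turned the split over all genes from 2109 higher and 1291 lower to 1422 higher and 1758 lower.

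With shPcyt2-2, 9 of the 38 genes changed, 7 higher and 2 lower, against 12.4% of all tested genes in either direction (7.69% higher and 4.74% lower). At an unadjusted p under 0.05, 16 passed, against 31.1% of all tested genes. ACLY, ACSS2, ACSL1, AGPAT5, LPCAT3, DGAT2 and HADHB rose, and AGPAT2 and ACADVL fell. The median log2 fold change of the 38 genes was 0.10, with 0.0438 over all tested genes. The count moved with single libraries, as it did over all tested genes. Without shPcyt2-2 replicate 1, 1 of the 38 genes was called (0.98% of all tested genes), without shNT replicate 2, 2 were called (3.16%), and without shPcyt2-2 replicate 2, 4 were called (4.41%). Median-ratio scaling left 6 higher and 2 lower genes, and over all genes moved the split from 981 higher and 604 lower to 763 higher and 879 lower.

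**Figure D1:**
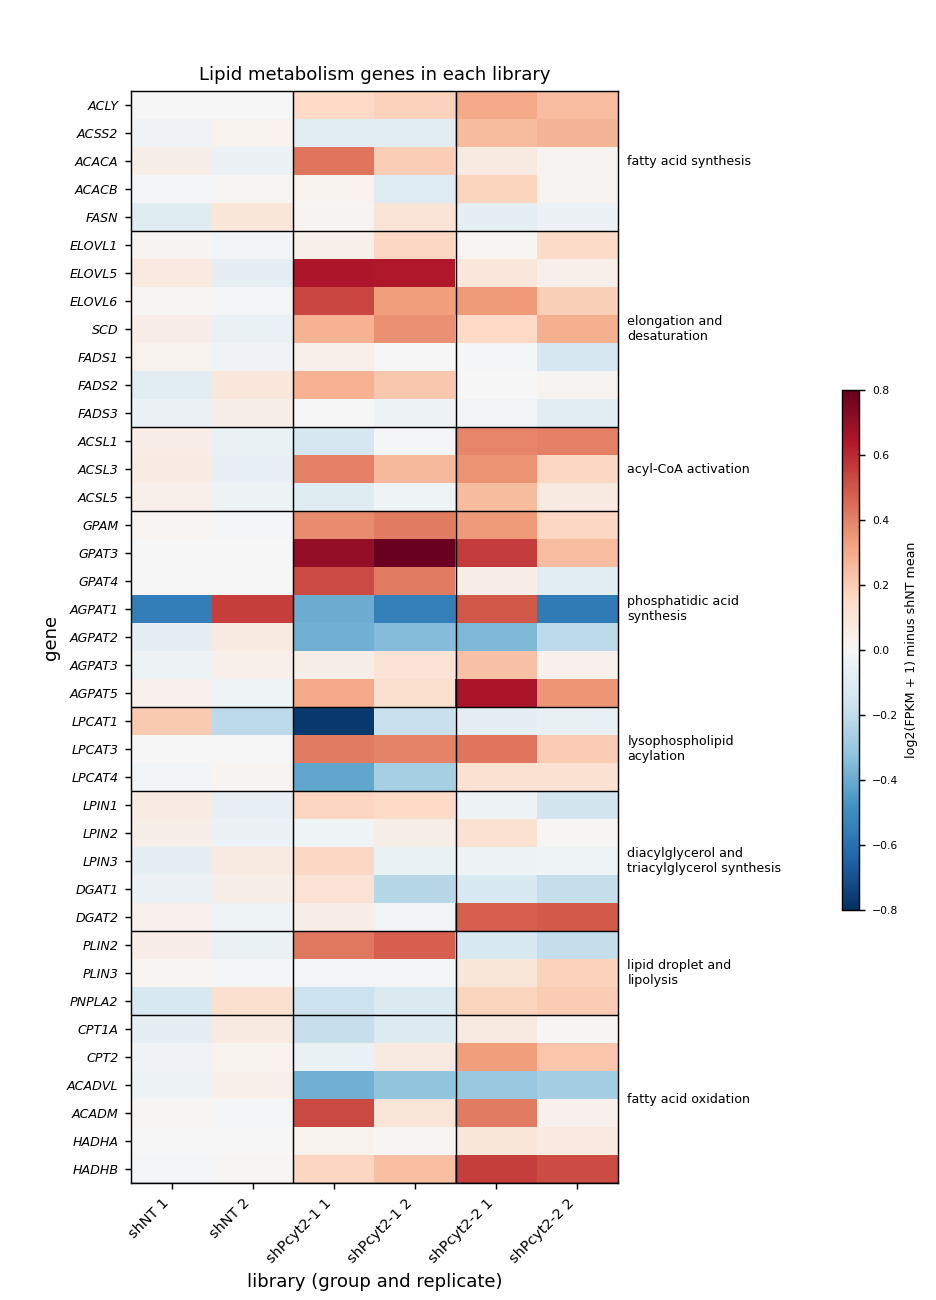
Level of each of the 39 genes (rows, grouped by role) in each of the 6 libraries (columns), as log2(FPKM + 1) minus the mean of the 2 shNT libraries (red above, blue below; the color scale ends at 0.8 either way). ELOVL5, GPAT4 and PLIN2 are red in both shPcyt2-1 libraries and near the shNT level with shPcyt2-2, DGAT2, ACSL1 and HADHB are reddest with shPcyt2-2, AGPAT2 and ACADVL are blue in all 4 knockdown libraries, and AGPAT1 and LPCAT1 differ between replicates of a group.

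Set against each other, the hairpins differed in 10 of the 38 genes (26.3%), against 27.1% of all tested genes, and at an unadjusted p under 0.05 in 17, against 40.2%. The share of these genes was thus near that of all genes. Higher with shPcyt2-2 than with shPcyt2-1 were ACSS2, ACSL1, LPCAT4, DGAT2, PNPLA2, CPT2 and HADHB, and lower were ELOVL5, GPAT4 and PLIN2 (12.9% and 14.2% of all tested genes). Without shPcyt2-1 replicate 1, 6 genes were called, against 13% of all tested genes. In the comparison that pools the 4 knockdown libraries against the 2 shNT libraries, in which the difference between the hairpins counts as spread, limma called 0 of the 38 genes (0.00784% of all tested genes, which is 1 gene), and 11 of the 38 genes had an unadjusted p under 0.05, against 16.7% of all tested genes. The mean of the hairpins in the fit with 3 groups, which takes the spread within each hairpin only, called 12 of the 38 genes, 10 higher and 2 lower, and 2142 of all tested genes.

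With shPcyt2-1, both libraries lay above both of shNT in 19 of the 38 genes (43.3% of all tested genes) and below them in 5 (25.6%), out of 69% of all tested genes apart in either direction. With shPcyt2-2, the libraries were apart and higher in 19 (35.1% of all tested genes) and apart and lower in 4 (22.4%), out of 57.5% of all tested genes apart in either direction. Between the hairpins, shPcyt2-2 was apart and higher in 15 (30.7%) and apart and lower in 10 (36.5%), out of 67.3% in either direction.

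In 11 of the 38 genes all 4 knockdown libraries lay above both shNT libraries, against 20.7% of all tested genes, and in 2 of them all 4 lay below, against 9.48% (30.2% in either direction). The 11 were ACLY, ELOVL6, SCD, ACSL3, GPAM, GPAT3, AGPAT5, LPCAT3, ACADM, HADHA and HADHB, and the 2 were AGPAT2 and ACADVL. Both hairpins were compared with the same shNT libraries, so a value of shNT that lies apart moves both comparisons the same way.

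**Figure D2:**
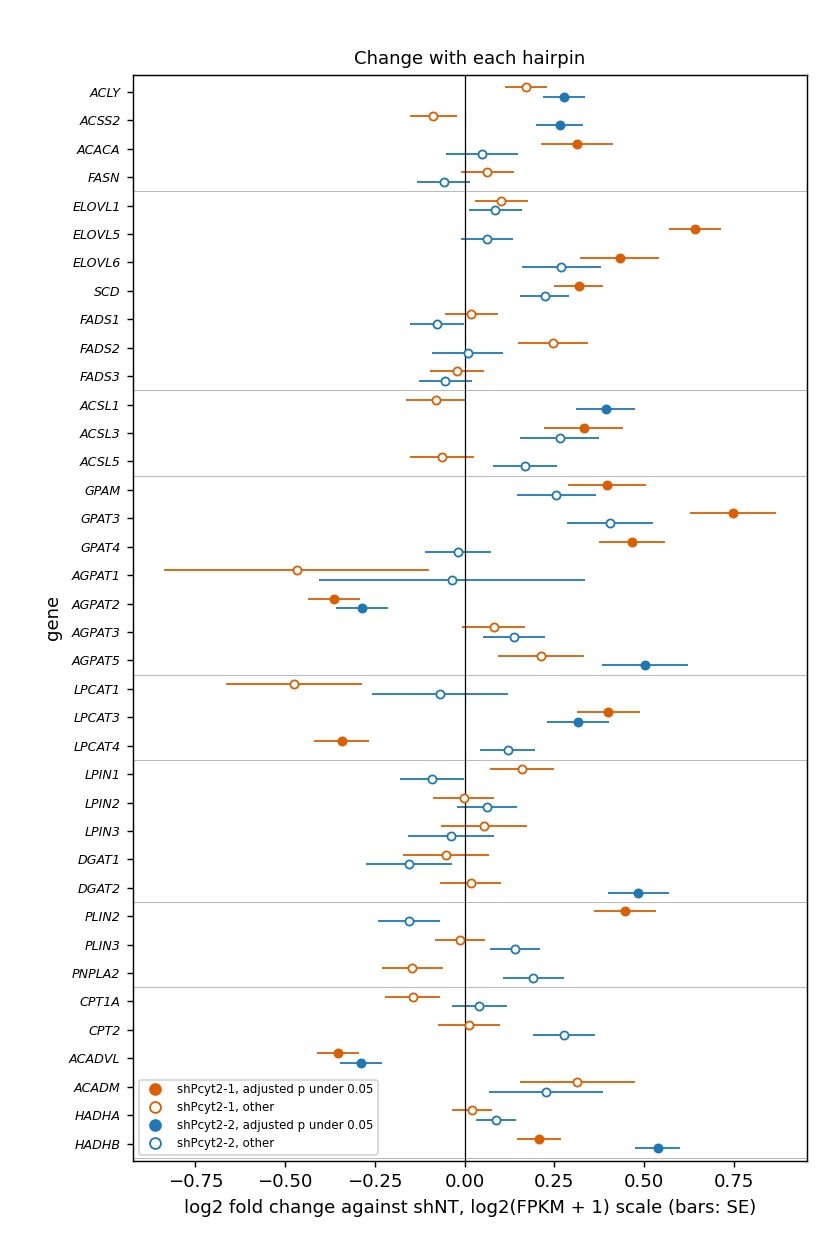
Log2 fold change of the 38 tested genes (rows, grouped by role) with shPcyt2-1 (orange) and shPcyt2-2 (blue) against shNT, on the log2(FPKM + 1) scale, with bars for the standard error and filled points for a limma adjusted p under 0.05. The values reach from -0.48 (LPCAT1) to 0.75 (GPAT3) with shPcyt2-1 and from -0.29 (ACADVL) to 0.54 (HADHB) with shPcyt2-2.

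The most abundant of these genes in shNT cells were AGPAT2, at 166 ± 11.5 FPKM (SD, n = 2), ACADVL, at 160 ± 6.29 FPKM (SD, n = 2), SCD, at 125 ± 6.76 FPKM (SD, n = 2), and FASN, at 84.5 ± 7.87 FPKM (SD, n = 2). AGPAT2 and ACADVL lay within each other's spread, and the mean of the next gene, HADHA, at 76.9 ± 0.260 FPKM (SD, n = 2), lay within 1 SD of FASN. At the low end stood LPIN3, GPAM, GPAT3 and ACACB, at 2.27, 1.83, 1.19 and 0.449 FPKM. FPKM is scaled to gene length, so these levels can be set beside each other, and on the log2(FPKM + 1) scale the changes of the low genes are understated.

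Fatty acid synthesis begins with acetyl-CoA. ATP citrate lyase (ACLY), which makes it from citrate in the cytosol, was at 69.4 and 69.9 FPKM with shNT, 77.8 and 79.3 FPKM with shPcyt2-1, and 86.3 and 83.0 FPKM with shPcyt2-2. The shNT libraries were the lowest 2 of the 6. ACLY rose by 0.28 with shPcyt2-2 (SE 0.058, limma adjusted p = 0.0193, lost under 5 of 14 alternatives, among them without shNT replicate 2 and without either shPcyt2-2 library), while its value of 0.17 with shPcyt2-1 missed the threshold (limma adjusted p = 0.0552). Acetyl-CoA synthetase 2 (ACSS2), which makes acetyl-CoA from acetate, was at 27.6 and 28.8 FPKM with shNT, 26.4 and 26.5 FPKM with shPcyt2-1, and 33.8 and 34.3 FPKM with shPcyt2-2. Only the shPcyt2-2 libraries stood above shNT. ACSS2 rose by 0.26 with that hairpin (limma adjusted p = 0.0337), a call lost under 9 of the 14 alternatives tried, including the omission of any single library, and shPcyt2-2 exceeded shPcyt2-1 by 0.35 (SE 0.066, limma adjusted p = 0.00511), which held under all 14.

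Acetyl-CoA carboxylase 1 (ACACA), whose malonyl-CoA product commits carbon to synthesis, was at 8.61 and 8 FPKM with shNT, 11.5 and 9.64 FPKM with shPcyt2-1, and 8.79 and 8.46 FPKM with shPcyt2-2. It rose by 0.31 with shPcyt2-1 (SE 0.10, limma adjusted p = 0.0472), and this value ran from 0.19 to 0.43 over the alternatives. The call was lost under 9 of 14 alternatives, among them the omission of any single library other than shPcyt2-1 replicate 2. Fatty acid synthase (FASN), which assembles palmitate, showed 78.9 and 90.1 FPKM with shNT, 85.7 and 90.7 FPKM with shPcyt2-1, and 80.3 and 81.6 FPKM with shPcyt2-2. The shNT libraries of FASN overlapped those of each hairpin, and both shPcyt2-2 libraries lay below both shPcyt2-1 libraries. Neither value against shNT (0.06 and -0.06) nor the difference between hairpins (-0.12) passed the test, but after adjustment for GC content and length FASN was called with shPcyt2-1 (0.24, limma adjusted p = 0.0116) and between the hairpins (-0.19, limma adjusted p = 0.019). Of the 4 tested genes of synthesis, 1 rose with shPcyt2-1 (16.5% of all tested genes) and 2 with shPcyt2-2 (7.69% of all tested genes).

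Among the 7 genes of elongation and desaturation, 3 rose with shPcyt2-1 (16.5% of all tested genes) and 0 with shPcyt2-2 (7.69% of all tested genes), where 2 had an unadjusted limma p under 0.05. ELOVL5 (ENSG00000012660, chr6:53267398-53349179 in GRCh38), which elongates polyunsaturated fatty acids, was at 31.1 and 27.9 FPKM with shNT, 46.6 and 46.4 FPKM with shPcyt2-1, and 31.4 and 30.3 FPKM with shPcyt2-2. Both shPcyt2-1 libraries stood far above the other 4, which lay close together. ELOVL5 rose by 0.64 with shPcyt2-1 (SE 0.073, limma adjusted p = 0.00109), against 0.06 with shPcyt2-2 (limma adjusted p = 0.594), and the hairpins differed by -0.58 (limma adjusted p = 0.000827). The rise and the difference held under all 14 alternatives.

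SCD (ENSG00000099194, chr10:100347124-100364834), the stearoyl-CoA desaturase that makes oleate and palmitoleate, was at 130 and 121 FPKM with shNT, 152 and 162 FPKM with shPcyt2-1, and 140 and 153 FPKM with shPcyt2-2. The shNT libraries were again the lowest. SCD rose by 0.32 with shPcyt2-1 (SE 0.068, limma adjusted p = 0.0113), a call lost without shPcyt2-1 replicate 2, with no expression limit, with median-ratio scaling and after adjustment for GC content and length, and its value of 0.22 with shPcyt2-2 missed the threshold (limma adjusted p = 0.0633) but passed without shNT replicate 1 (0.28, limma adjusted p = 0.0397). ELOVL6, which elongates palmitate to stearate, was at 2.65 and 2.59 FPKM with shNT, 4.24 and 3.56 FPKM with shPcyt2-1, and 3.58 and 3.14 FPKM with shPcyt2-2. It had values of 0.43 with shPcyt2-1 (limma adjusted p = 0.0219, lost under 4 of 14 alternatives, 3 of which left out shNT replicate 1, shNT replicate 2 or shPcyt2-1 replicate 1) and 0.27 with shPcyt2-2 (limma adjusted p = 0.138).

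ELOVL1, which serves very long chains, and the desaturase genes FADS1, FADS2 and FADS3 were not called with either hairpin. Their values lay between -0.02 (FADS3) and 0.25 (FADS2) with shPcyt2-1 and between -0.08 (FADS1) and 0.09 (ELOVL1) with shPcyt2-2. Summed over 5 elongase genes listed in the tables, the level was 93.5 and 88.3 FPKM with shNT, 112 and 116 FPKM with shPcyt2-1, and 94.3 and 98.6 FPKM with shPcyt2-2. The share of ELOVL5 in that sum was 33.3% and 31.5% with shNT, 41.6% and 39.9% with shPcyt2-1, and 33.2% and 30.7% with shPcyt2-2, and ELOVL1 made up most of the rest. FADS1, FADS2 and FADS3 together were at 48.3 ± 0.875, 49.6 ± 1.17 and 46.3 ± 1.78 FPKM (SD, n = 2 each) in the 3 groups.

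The stretch of 250 bases before the RefSeq start site is shown for SCD and ELOVL5, since both rose with shPcyt2-1 while ELOVL5 alone of the pair differed between the hairpins. Both are from the RefSeq promoter table (GRCh38.p14), SCD from chr10:100346983-100347232 on the plus strand and ELOVL5 from chr6:53348951-53349200 on the minus strand, and capitals mark CCAAT (the letters of the CCAAT box, or ATTGG where it lies on the other strand) and CACGTG (the letters of an E-box that USF factors can bind).
SCD: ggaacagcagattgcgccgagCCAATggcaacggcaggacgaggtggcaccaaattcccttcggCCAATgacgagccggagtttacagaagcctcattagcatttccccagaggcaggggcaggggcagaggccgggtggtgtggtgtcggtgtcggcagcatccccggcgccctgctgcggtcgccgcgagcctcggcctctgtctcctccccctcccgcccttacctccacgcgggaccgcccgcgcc
ELOVL5: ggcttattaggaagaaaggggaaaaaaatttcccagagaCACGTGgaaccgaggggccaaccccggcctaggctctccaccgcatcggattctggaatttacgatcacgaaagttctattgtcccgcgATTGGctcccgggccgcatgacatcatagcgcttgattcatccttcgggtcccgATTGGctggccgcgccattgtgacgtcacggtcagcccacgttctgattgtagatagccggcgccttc
SCD showed 2 matches to CCAAT and none to CACGTG, and ELOVL5 showed 2 matches to CCAAT and 1 to CACGTG.

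Windows of 250 bases before to 50 after the start site were found for 33 of the 39 genes. LPIN3, GPAT4, FASN, DGAT2, DGAT1 and AGPAT5 were not matched. CCAAT, searched on both strands, was in 16 of the 33 genes (48.5%) and in 39.7% of all 27305 genes with a window. CACGTG was in 3 of 33 (9.09%; ELOVL5, LPIN2 and PLIN2) and in 8.77% of all genes. TCACNCCAC, the letters of a sterol regulatory element, was in 2 of 33 (6.06%; ACSL1 and PNPLA2) and in 1.39% of all genes. An NRF1 site and a direct repeat 1 of nuclear receptors were also searched and were in 0 of 33, and in 1.52% and 0.0293% of all genes. A match is a description of the letters only, and no match says only that the letters are not in this window.

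Long-chain acyl-CoA synthetases activate fatty acids, and 3 of them are members here. ACSL1 was at 14.3 and 13.2 FPKM with shNT, 12.4 and 13.6 FPKM with shPcyt2-1, and 18.3 and 18.5 FPKM with shPcyt2-2. The shPcyt2-2 libraries stood above the other 4, and the shNT and shPcyt2-1 libraries overlapped. ACSL1 rose by 0.39 with shPcyt2-2 (SE 0.082, limma adjusted p = 0.0193, lost without either shPcyt2-2 library, without shNT replicate 2 and with no expression limit), and the hairpins differed by 0.47 (limma adjusted p = 0.00358), which held under all 14 alternatives. ACSL3, which sits on nascent lipid droplets, was at 6.31 and 5.68 FPKM with shNT, 8.25 and 7.36 FPKM with shPcyt2-1, and 7.97 and 6.85 FPKM with shPcyt2-2. All 4 knockdown libraries lay above shNT, with values of 0.33 (limma adjusted p = 0.0462, lost under 8 of 14 alternatives, including the omission of any single shNT or shPcyt2-1 library) and 0.26 (limma adjusted p = 0.127). ACSL5, the isoform of the intestinal epithelium, had values of -0.06 and 0.17 and was not called.

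The windows of ACSL1 and PNPLA2, the only ones of the 33 with TCACNCCAC, are shown because both genes were higher with shPcyt2-2 than with shPcyt2-1. Capitals mark TCACNCCAC or its reverse complement, and CCAAT or ATTGG, in the 250 bases before the start site, for ACSL1 at chr4:184805554-184805803 on the minus strand (1 of 5 RefSeq windows of the gene, and the only one with the match) and for PNPLA2 at chr11:818664-818913 on the plus strand.
ACSL1: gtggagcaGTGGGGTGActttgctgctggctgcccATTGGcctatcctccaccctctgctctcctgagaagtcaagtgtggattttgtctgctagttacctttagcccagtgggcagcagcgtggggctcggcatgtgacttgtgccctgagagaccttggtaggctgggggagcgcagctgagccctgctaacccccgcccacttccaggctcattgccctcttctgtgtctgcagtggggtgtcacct
PNPLA2: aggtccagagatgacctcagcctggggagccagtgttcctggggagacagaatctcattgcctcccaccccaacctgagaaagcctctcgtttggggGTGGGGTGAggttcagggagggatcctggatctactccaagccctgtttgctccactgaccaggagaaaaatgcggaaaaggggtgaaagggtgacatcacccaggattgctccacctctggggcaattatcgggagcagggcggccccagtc
In both genes the match lay on the opposite strand and reads GTGGGGTGA as printed.

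The first acylation of glycerol-3-phosphate is carried out by GPAM on mitochondria and by GPAT3 and GPAT4 at the endoplasmic reticulum, and these 3 rose with shPcyt2-1. Of the 7 genes of phosphatidic acid synthesis, 3 rose and 1 fell with that hairpin (16.5% and 10.1% of all tested genes), and 1 rose and 1 fell with shPcyt2-2 (7.69% and 4.74%). GPAT3 (ENSG00000138678, chr4:83535914-83605875) was at 1.19 and 1.20 FPKM with shNT, 2.58 and 2.80 FPKM with shPcyt2-1, and 2.23 and 1.61 FPKM with shPcyt2-2. The shNT libraries were nearly equal and all 4 knockdown libraries lay above them. GPAT3 rose by 0.75 with shPcyt2-1 (SE 0.12, limma adjusted p = 0.00403), a call that held under all 14 alternatives. It had a value of 0.40 with shPcyt2-2 (SE 0.12, limma adjusted p = 0.0622), which ran from 0.25 to 0.63 over the alternatives. That value was called under 1 of the 14, without shPcyt2-2 replicate 2. The difference of GPAT3 between the hairpins, -0.34, missed the threshold (SE 0.12, limma adjusted p = 0.0676). It was -0.50 without shPcyt2-2 replicate 1, and was called there and after adjustment for GC content and length. GPAM, the isoform that SREBP and feeding are known to regulate, was at 1.86 and 1.80 FPKM with shNT, 2.67 and 2.77 FPKM with shPcyt2-1, and 2.58 and 2.18 FPKM with shPcyt2-2. Its 4 knockdown libraries were also above shNT. The values were 0.40 (SE 0.11, limma adjusted p = 0.0254, lost under 6 of 14 alternatives, among them the omission of any single shNT or shPcyt2-1 library) and 0.26 (limma adjusted p = 0.138).

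GPAT4, the most abundant of these isoforms, was at 6.68 and 6.67 FPKM with shNT, 10 and 9.24 FPKM with shPcyt2-1, and 6.95 and 6.22 FPKM with shPcyt2-2. The shPcyt2-1 libraries stood apart, and the shPcyt2-2 libraries lay on either side of shNT. GPAT4 rose by 0.47 with shPcyt2-1 (SE 0.092, limma adjusted p = 0.00806) and had a value of -0.02 with shPcyt2-2, and the hairpins differed by -0.49 (limma adjusted p = 0.0055). Both calls were lost only without shPcyt2-1 replicate 1 (adjusted p up to 0.0776 and 0.0549). Summed over GPAM, GPAT2, GPAT3 and GPAT4, the level was 10.1 ± 0.116 FPKM with shNT, 15.3 ± 0.346 FPKM with shPcyt2-1 and 11.2 ± 1.29 FPKM with shPcyt2-2 (SD, n = 2 each), and GPAT4 made up between 57.3% and 66.7% of it in each library.

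The second acylation, to phosphatidic acid, is carried by the AGPAT enzymes. AGPAT2, whose loss causes congenital lipodystrophy, was at 158 and 174 FPKM with shNT, 127 and 130 FPKM with shPcyt2-1, and 129 and 143 FPKM with shPcyt2-2. The 4 knockdown libraries lay below the shNT range, and AGPAT2 fell by 0.36 with shPcyt2-1 (SE 0.072, limma adjusted p = 0.00827) and by 0.29 with shPcyt2-2 (SE 0.072, limma adjusted p = 0.0355). The first call was lost after adjustment for GC content and length, which brought the value to -0.19 (adjusted p up to 0.0516). The second was lost under 6 of 14 alternatives, among them the same adjustment and the omission of shNT replicate 2 or of either shPcyt2-2 library. Its value ran from -0.36 to -0.15. AGPAT5 rose by 0.50 with shPcyt2-2 (SE 0.12, limma adjusted p = 0.0291), from 5.29 and 5 FPKM with shNT to 8.66 and 6.85 FPKM, and was at 6.57 and 5.70 FPKM with shPcyt2-1 (0.21, limma adjusted p = 0.209). Its call was lost without shPcyt2-2 replicate 1, without either shNT library and with no expression limit.

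AGPAT3 was not called (0.08 and 0.14). AGPAT1 was at 2.14 and 5.76 FPKM with shNT, 2.5 and 2.16 FPKM with shPcyt2-1, and 5.49 and 2.11 FPKM with shPcyt2-2, so 2 libraries of different groups stood high. That gene lies in the MHC region, 30.2% of its exon bases overlap another gene and several of its identifiers had identical values, and its level is uncertain. AGPAT2 made up between 78% and 86.1% of the summed level of 5 AGPAT genes in each library, and that sum was 194 ± 14.6 FPKM with shNT, 157 ± 1.30 FPKM with shPcyt2-1 and 168 ± 4.76 FPKM with shPcyt2-2 (SD, n = 2 each).

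**Figure D3:**
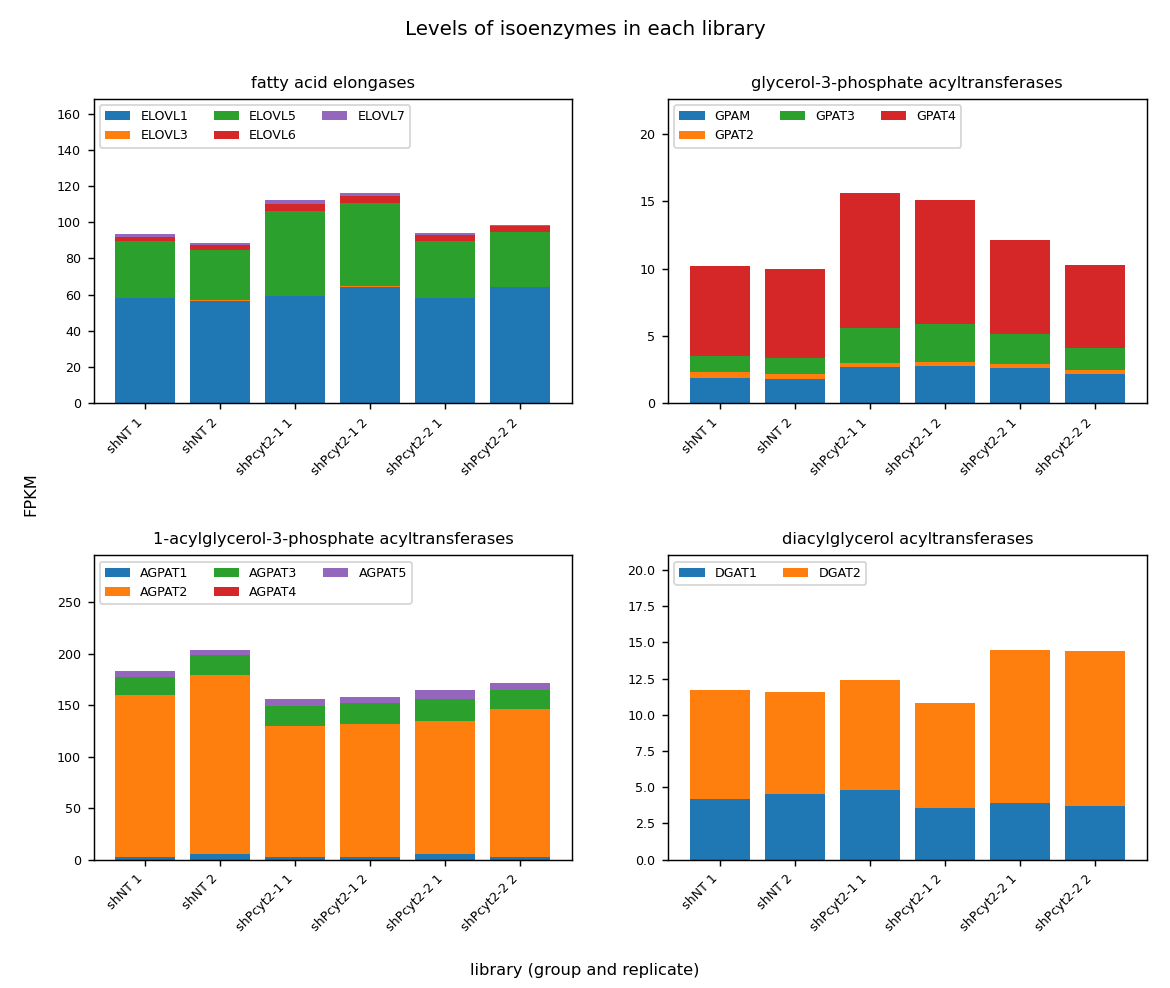
Stacked bars of the level in FPKM of the isoenzymes of 4 steps in each of the 6 libraries (2 of shNT, 2 of shPcyt2-1, 2 of shPcyt2-2), on axes that start at 0. ELOVL5 and GPAT4 add to the elongase and glycerol-3-phosphate acyltransferase bars with shPcyt2-1, AGPAT2 is most of every bar in its panel and is lower in the 4 knockdown libraries, and DGAT2 is larger with shPcyt2-2.

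Lysophospholipid acyltransferases remodel the acyl chains of phospholipids. LPCAT4, which also acts on lysophosphatidylethanolamine, was at 24.9 and 25.7 FPKM with shNT, 18.7 and 20.9 FPKM with shPcyt2-1, and 27.6 FPKM in both libraries of shPcyt2-2. The 3 groups did not overlap, with shPcyt2-1 lowest and shPcyt2-2 highest. LPCAT4 fell by 0.34 with shPcyt2-1 (SE 0.076, limma adjusted p = 0.013, lost without shNT replicate 2 or shPcyt2-1 replicate 1), had a value of 0.12 with shPcyt2-2 (limma adjusted p = 0.312), and differed between the hairpins by 0.46 (limma adjusted p = 0.00292), under all 14 alternatives as well.

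LPCAT3, which places polyunsaturated chains, rose by 0.40 with shPcyt2-1 (limma adjusted p = 0.0114, lost without shPcyt2-1 replicate 1) and by 0.32 with shPcyt2-2 (limma adjusted p = 0.0454, lost under 7 of 14 alternatives, among them the omission of any single shNT or shPcyt2-1 library or of shPcyt2-2 replicate 1, without which the value was 0.20). It was at 17.1 FPKM in both shNT libraries, 23.1 and 22.8 FPKM with shPcyt2-1, and 23.4 and 19.8 FPKM with shPcyt2-2. Of its exon bases, 65.6% overlap another gene, EMG1, on the opposite strand, so reads from the pair cannot be told apart. LPCAT1 was at 15.9 and 11.6 FPKM with shNT, 7.55 and 11.9 FPKM with shPcyt2-1, and 12.9 and 13 FPKM with shPcyt2-2. Its shPcyt2-1 libraries lay far apart, and the value of -0.48 was not called (SE 0.19, limma adjusted p = 0.0885). Its value ran from -0.77 without shPcyt2-1 replicate 2, where it was called (limma adjusted p = 0.00781), to -0.18 without shPcyt2-1 replicate 1. The difference of LPCAT1 between hairpins, 0.41 and not called, became 0.71 and was called without shPcyt2-1 replicate 2 (limma adjusted p = 0.00884).

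Phosphatidic acid is dephosphorylated to diacylglycerol by the lipins, and none of the 3 was called with either hairpin. LPIN1, LPIN2 and LPIN3 had values of 0.16, -0.00 and 0.05 with shPcyt2-1 and -0.09, 0.06 and -0.04 with shPcyt2-2. The difference of LPIN1 between the hairpins, -0.25, missed the threshold (SE 0.089, limma adjusted p = 0.0638). It was called with the replicate block and after adjustment for GC content and length. Diacylglycerol acyltransferase 2 (DGAT2), which makes triacylglycerol, was at 7.54 and 7.11 FPKM with shNT, 7.64 and 7.21 FPKM with shPcyt2-1, and 10.6 and 10.7 FPKM with shPcyt2-2. The shNT and shPcyt2-1 libraries overlapped and the shPcyt2-2 libraries stood well above them. DGAT2 rose by 0.48 with shPcyt2-2 (SE 0.085, limma adjusted p = 0.011, lost without either shPcyt2-2 library, without shNT replicate 2 and with no expression limit), against 0.02 with shPcyt2-1, and the difference of 0.47 held under all 14 alternatives (limma adjusted p = 0.00448).

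DGAT1, the unrelated enzyme of the same step, was at 4.19 and 4.53 FPKM with shNT, 4.81 and 3.58 FPKM with shPcyt2-1, and 3.92 and 3.70 FPKM with shPcyt2-2. The values of -0.05 and -0.15 were not called. DGAT2 supplied 64.3% and 61.1% of the summed level of DGAT1 and DGAT2 with shNT, 61.3% and 66.8% with shPcyt2-1, and 73.0% and 74.2% with shPcyt2-2. Of the 5 genes of diacylglycerol and triacylglycerol synthesis, 0 were called by limma with shPcyt2-1, against 26.7% of all tested genes (0 at an unadjusted p under 0.05, against 40.9%), and 1 with shPcyt2-2, against 12.4%.

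Perilipin 2 (PLIN2) coats lipid droplets in most cells and its protein is degraded where droplets are few. It was at 8.94 and 8.21 FPKM with shNT, 11.8 and 12.3 FPKM with shPcyt2-1, and 7.80 and 7.39 FPKM with shPcyt2-2. The groups did not overlap, with shPcyt2-1 highest and shPcyt2-2 lowest. PLIN2 rose by 0.45 with shPcyt2-1 (SE 0.086, limma adjusted p = 0.00718, lost without shPcyt2-1 replicate 2 at an adjusted p of 0.0502), had a value of -0.16 with shPcyt2-2 (limma adjusted p = 0.253), and shPcyt2-2 minus shPcyt2-1 was -0.60 (SE 0.086, limma adjusted p = 0.00148), which held under all 14 alternatives. Before any alternative, no other of the 38 genes differed as much between the hairpins, with ELOVL5 close behind at -0.58. Under single alternatives LPCAT1 and AGPAT1 reached 0.71 and 0.96.

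PNPLA2, the adipose triglyceride lipase that starts the breakdown of stored triacylglycerol, was at 46.5 and 55.7 FPKM with shNT, 45 and 46.8 FPKM with shPcyt2-1, and 57.8 and 58.8 FPKM with shPcyt2-2. The shNT libraries reached from the level of one hairpin nearly to that of the other, and neither value against shNT passed (-0.15 and 0.19). Without shNT replicate 1 the first was called (-0.27, limma adjusted p = 0.0242), and without shNT replicate 2 the second (0.32, limma adjusted p = 0.0474). The hairpins differed by 0.34 (limma adjusted p = 0.0179), a call lost without shPcyt2-1 replicate 1, without either shPcyt2-2 library and with no expression limit. PLIN3 was not called (-0.01 and 0.14). Where the hairpins differed, PLIN2 was thus higher with shPcyt2-1, and PNPLA2 and DGAT2 were higher with shPcyt2-2.

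**Figure D4:**
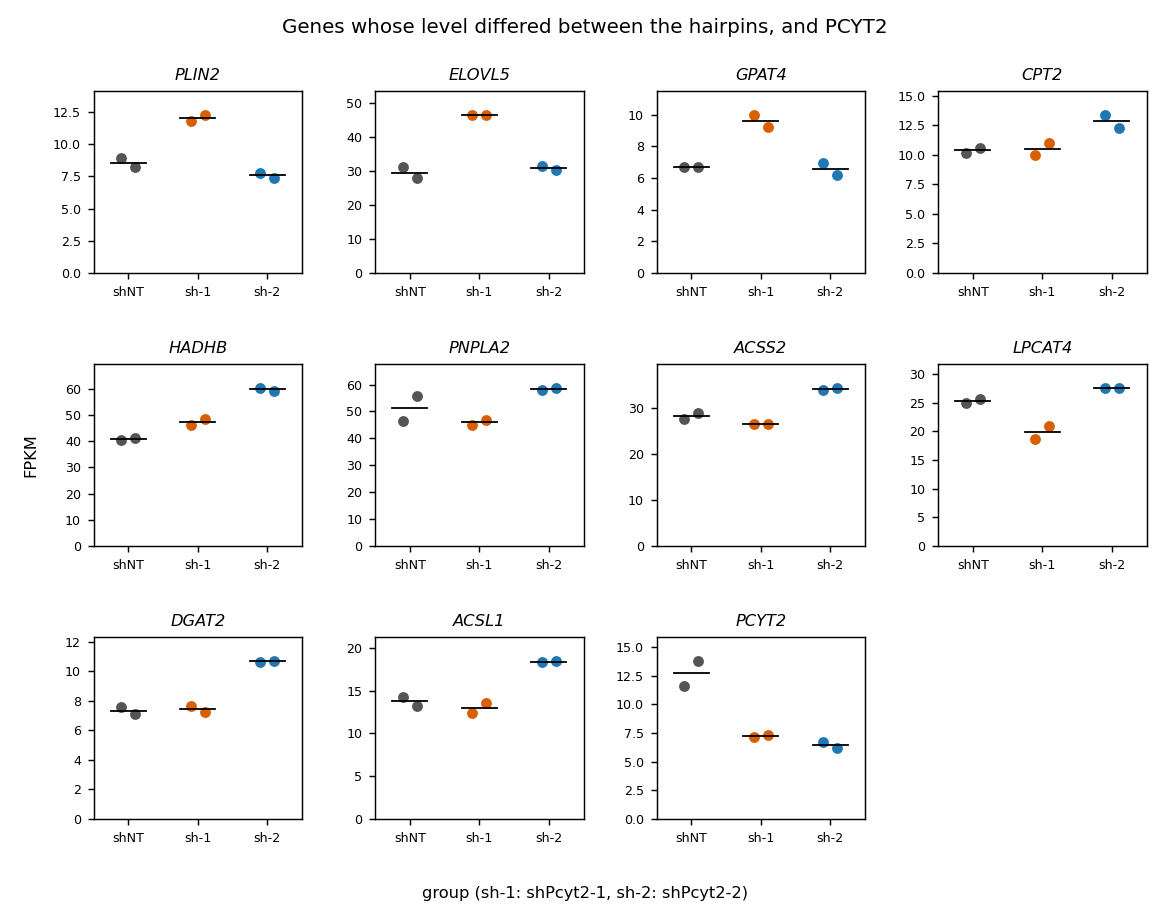
FPKM in each library (points) with the group mean (line) for the 10 genes that differed between the hairpins by limma at an adjusted p under 0.05, and for PCYT2, which did not, on axes that start at 0. PLIN2, ELOVL5 and GPAT4 are highest with shPcyt2-1, the other 7 genes are highest with shPcyt2-2, and PCYT2 is lower in all 4 knockdown libraries.

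Fatty acids enter mitochondria through CPT1A and CPT2. CPT1A, the step that malonyl-CoA inhibits, was at 25 and 27.8 FPKM with shNT, 23.1 and 24.4 FPKM with shPcyt2-1, and 27.7 and 26.6 FPKM with shPcyt2-2, and was not called (-0.14 and 0.04). CPT2 was at 10.2 and 10.6 FPKM with shNT, 10 and 11 FPKM with shPcyt2-1, and 13.4 and 12.3 FPKM with shPcyt2-2. Only the shPcyt2-2 libraries of CPT2 stood apart, with a value of 0.28 against shNT that missed the threshold (limma adjusted p = 0.065). CPT2 was higher with shPcyt2-2 than with shPcyt2-1 by 0.27 (limma adjusted p = 0.0483), and this call was lost under 6 of 14 alternatives, including the omission of any single knockdown library.

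ACADVL, the dehydrogenase that opens the oxidation of long chains, was at 155 and 164 FPKM with shNT, 122 and 128 FPKM with shPcyt2-1, and 129 and 132 FPKM with shPcyt2-2. Every knockdown library was below the shNT range. ACADVL fell by 0.35 with shPcyt2-1 (SE 0.059, limma adjusted p = 0.00415), under all 14 alternatives as well, and by 0.29 with shPcyt2-2 (limma adjusted p = 0.0181, lost under 5 of 14, among them without shNT replicate 2 and without either shPcyt2-2 library). ACADM, the medium-chain enzyme, was at 7.17 and 7.07 FPKM with shNT, 10.7 and 7.67 FPKM with shPcyt2-1, and 9.84 and 7.33 FPKM with shPcyt2-2. In each knockdown group 1 library stood well above the other, and neither value (0.31 and 0.23) was called. Over the 14 alternatives the first ran from 0.10 to 0.53, the latter without shPcyt2-1 replicate 2, and the second from 0.04 to 0.42.

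HADHA and HADHB encode the α and β subunits of the mitochondrial trifunctional protein, which carries out the later steps of long-chain β-oxidation. HADHB (ENSG00000138029, chr2:26243170-26290468) was at 40.6 and 41.1 FPKM with shNT, 46.2 and 48.5 FPKM with shPcyt2-1, and 60.4 and 59.1 FPKM with shPcyt2-2. HADHA was at 76.7 and 77.1 FPKM with shNT, 78.6 and 77.5 FPKM with shPcyt2-1, and 82.3 and 81.2 FPKM with shPcyt2-2. The groups of HADHB were well separated, while those of HADHA lay within a narrow range.

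HADHB rose by 0.54 with shPcyt2-2 (SE 0.062, limma adjusted p = 0.00267), under all 14 alternatives as well, and by 0.21 with shPcyt2-1 (limma adjusted p = 0.0371), a call lost under 9 of 14 alternatives, including the omission of any single library, median-ratio scaling (0.13) and adjustment for GC content and length (0.06). The difference of 0.33 (limma adjusted p = 0.00528) was lost only without shPcyt2-1 replicate 1. HADHA had values of 0.02 and 0.09 and was not called (limma adjusted p = 0.802 and 0.319). The ratio of HADHB to HADHA in FPKM was 0.529 and 0.534 with shNT, 0.588 and 0.626 with shPcyt2-1, and 0.734 and 0.728 with shPcyt2-2, so that the 3 groups did not overlap.

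The trifunctional protein genes lie head to head on chromosome 2. The stretch between their RefSeq start sites is shown because the pair shares it while the transcript levels moved apart. Their GENCODE spans overlap, since HADHA ends at 26244726 and HADHB begins at 26243170. The RefSeq start sites are at 26244632 for HADHA (minus strand) and 26244939 for HADHB (plus strand), 307 bases apart. The 194 bases that the windows of both genes hold, chr2:26244689-26244882 in GRCh38.p14 on the plus strand, read:
HADHA and HADHB: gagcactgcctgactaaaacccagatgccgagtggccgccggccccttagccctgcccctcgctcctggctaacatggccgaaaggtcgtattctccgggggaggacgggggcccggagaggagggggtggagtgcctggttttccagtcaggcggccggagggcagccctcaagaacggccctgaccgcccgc
None of the 5 motifs searched occurred in it, so no base is in capitals.

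Other genes of the same steps, from lists of related enzymes, are given next as counts and examples, to be read against the shares of all tested genes, 26.7% with shPcyt2-1 (16.5% higher and 10.1% lower), 12.4% with shPcyt2-2 (7.69% higher and 4.74% lower) and 27.1% between the hairpins. Of 16 tested genes of synthesis and elongation outside the 39, 4 rose and 1 fell with shPcyt2-1, 4 rose with shPcyt2-2, and 2 differed between the hairpins. HACD2, a dehydratase of the elongation cycle, rose with both (0.40 and 0.42, limma adjusted p = 0.0279 and 0.0382), as did OXSM, a synthase of mitochondrial fatty acid synthesis (0.28 and 0.33, limma adjusted p = 0.0358 and 0.035). SCD5, the second human stearoyl-CoA desaturase, was at 2.58 and 2.56 FPKM with shNT, 1.85 and 1.43 FPKM with shPcyt2-1, and 4.07 and 4.33 FPKM with shPcyt2-2. SCD5 fell by 0.44 with the first hairpin and rose by 0.54 with the second (limma adjusted p = 0.0207 and 0.0191), and the difference was 0.98 (limma adjusted p = 0.000539). Its level remained below 3% of the summed level of SCD and SCD5 in each library. ELOVL7 was lower with shPcyt2-2 than with shPcyt2-1 (-0.49, limma adjusted p = 0.0243).

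Of 14 tested genes of activation, uptake and binding, 3 rose and 2 fell with shPcyt2-1, 1 rose with shPcyt2-2, and 7 differed between the hairpins, which is 35.7%, 7.14% and 50% of the list beside 26.7%, 12.4% and 27.1% of all tested genes. ACSF2, an acyl-CoA synthetase of medium chains, was at 5.68 and 5.18 FPKM with shNT, 2.63 and 3.30 FPKM with shPcyt2-1, and 6.78 and 7.41 FPKM with shPcyt2-2, and fell by 0.70 with shPcyt2-1 (limma adjusted p = 0.00368). The fatty acid transport protein SLC27A1 fell by 0.62 with shPcyt2-1 (limma adjusted p = 0.00292) and SLC27A4 rose by 0.42 (limma adjusted p = 0.00862). Both ACSF2 and SLC27A1 were higher with shPcyt2-2 than with shPcyt2-1 (1.03 and 0.77), and SLC27A4 and the thioesterase ACOT7 were lower (-0.65 and -0.51). ACOT9 rose with both hairpins (0.32 and 0.31, limma adjusted p = 0.0161 and 0.0321).

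Among 21 tested acyltransferase and diacylglycerol genes outside the 39, 1 rose and 3 fell with shPcyt2-1, 1 rose with shPcyt2-2, and 6 differed between the hairpins, or 19%, 4.76% and 28.6% of the list, beside the same shares of all tested genes (26.7%, 12.4% and 27.1%). LCLAT1, a lysophospholipid acyltransferase, rose by 0.75 with shPcyt2-1 (limma adjusted p = 0.00164), from 2.97 and 2.77 FPKM to 5.35 and 5.69 FPKM. The diacylglycerol kinase DGKQ and the lipid phosphatase PLPP2 fell by 0.71 and by 0.51 with shPcyt2-1 (limma adjusted p = 0.0017 and 0.00188). LPCAT2 rose by 0.59 with shPcyt2-2 (limma adjusted p = 0.0111). LPCAT2 and PLPP2 were higher with shPcyt2-2 than with shPcyt2-1 (0.66 and 0.52), and LCLAT1 and LPGAT1 were lower (-0.46 and -0.47).

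Of 14 tested lipid droplet and lipolysis genes outside the 39, 3 rose with shPcyt2-1, 0 were called with shPcyt2-2 (3 at an unadjusted limma p under 0.05), and 4 differed between the hairpins (21.4%, 0% and 28.6% of the list, beside 26.7%, 12.4% and 27.1% of all tested genes). LIPA, the lysosomal acid lipase, rose by 0.59 with shPcyt2-1 (limma adjusted p = 0.0035) and HILPDA, an inhibitor of PNPLA2, by 0.31 (limma adjusted p = 0.021). ABHD6 and PNPLA3 were higher with shPcyt2-2 than with shPcyt2-1 (0.57 and 0.52), and LIPA and BSCL2, the seipin gene, were lower (-0.40 and -0.30), with 51.9% of the exon bases of BSCL2 overlapping another gene. Of 28 tested oxidation genes outside the 39, 4 rose and 2 fell with shPcyt2-1, 2 fell with shPcyt2-2, and 8 differed between the hairpins (21.4%, 7.14% and 28.6% of the list). PECR and ABCD3, both peroxisomal, rose with shPcyt2-1 (0.65 and 0.43, limma adjusted p = 0.00541 and 0.0239). ETFB, which accepts electrons from the acyl-CoA dehydrogenases, was at 161 and 172 FPKM with shNT, 116 and 115 FPKM with shPcyt2-1, and 140 and 143 FPKM with shPcyt2-2, and fell with both hairpins (-0.52 and -0.23, limma adjusted p = 0.00103 and 0.0355). ACADS fell by 0.31 with shPcyt2-1 and ECI1 by 0.32 with shPcyt2-2. ACADS and ECHS1 were higher with shPcyt2-2 than with shPcyt2-1 (0.39 and 0.32), and PECR and HSD17B10 were lower (-0.60 and -0.52).

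Of 28 tested regulators, 4 rose and 6 fell with shPcyt2-1, 4 rose and 3 fell with shPcyt2-2, and 10 differed between the hairpins (35.7%, 25% and 35.7% of the list, beside 26.7%, 12.4% and 27.1% of all tested genes). SREBF1 and SREBF2, which encode the SREBP factors of lipid synthesis, were not called (0.03 and -0.11 with shPcyt2-1, -0.09 and 0.01 with shPcyt2-2), nor was PPARG (-0.04 and 0.06). INSIG1, which retains SREBP in the endoplasmic reticulum, had values of -0.02 and 0.33 against shNT, neither called, and was higher with shPcyt2-2 than with shPcyt2-1 (0.35, limma adjusted p = 0.0316). SCAP, the SREBP escort, was at 22.0 and 26.1 FPKM with shNT, 28.0 and 27.9 FPKM with shPcyt2-1, and 17.5 and 15.5 FPKM with shPcyt2-2, and fell by 0.51 with shPcyt2-2 (limma adjusted p = 0.0143). USF2 fell by 0.43 with shPcyt2-2 (limma adjusted p = 0.00565), and USF1 rose by 0.42 with shPcyt2-1 (limma adjusted p = 0.0112).

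HNF4A, a nuclear receptor of gut and liver lipid genes, was at 31.9 and 36.1 FPKM with shNT, 24.8 and 25 FPKM with shPcyt2-1, and 25.4 FPKM in both shPcyt2-2 libraries. It fell with both hairpins (-0.43 and -0.40, limma adjusted p = 0.00505 and 0.0144). PRKAA1 and PRKAB2, subunits of the AMP-activated kinase, rose with both (0.33 and 0.62 for PRKAA1, 0.38 and 0.40 for PRKAB2), and MBTPS2, an SREBP protease, rose by 0.42 with shPcyt2-2. RXRA, a partner of the lipid nuclear receptors, fell by 0.54 with shPcyt2-1 (limma adjusted p = 0.00307) and, with PPARA, was higher with shPcyt2-2 than with shPcyt2-1 (0.39 and 0.56). SCAP and PRKAB1 were lower in the same comparison (-0.73 and -0.47). Among 9 tested genes of the ethanolamine and choline branches, ETNK1, which makes the substrate of PCYT2, rose with both hairpins (0.50 and 0.50, limma adjusted p = 0.00739 and 0.0149), CEPT1 rose by 0.32 with shPcyt2-1 and PCYT1A by 0.38 with shPcyt2-2. With each hairpin 3 of the 9 were called (33.3%, beside 26.7% and 12.4% of all tested genes), and between the hairpins 1 (11.1%, beside 27.1%). PCYT2, the target of the hairpins, was the only gene of the 9 called lower with either. Of all tested genes, 10.1% fell with shPcyt2-1 and 4.74% with shPcyt2-2.

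The labelled cell type was checked against its markers. Of 12 colorectal epithelial markers, 12 were listed and 10 tested, with KRT8 the most abundant, and EPCAM, CDH1 and VIL1 were well above the limit, while KRT20 and CEACAM5 were at or near 0. The summed level of the list was 8220 and 8770 FPKM with shNT, 8430 and 8530 FPKM with shPcyt2-1, and 6260 and 6560 FPKM with shPcyt2-2. That sum is made up mostly of KRT8, KRT18 and KRT19, which fell with shPcyt2-2 (-0.41, -0.45 and -0.44, limma adjusted p = 0.00483, 0.00319 and 0.00546). CDH17 rose with that hairpin (0.50, limma adjusted p = 0.0212), and 5 of the 10 tested markers had positive values and 5 negative ones. By limma 0 of the 10 rose and 2 fell with shPcyt2-1 (20% called, beside 26.7% of all tested genes), 1 rose and 3 fell with shPcyt2-2 (40% beside 12.4%), and 3 were higher and 3 lower with shPcyt2-2 than with shPcyt2-1 (60% beside 27.1%). CDX2, a factor of intestinal identity, fell by 0.65 with shPcyt2-1 (limma adjusted p = 0.00138). Of 16 markers of other cell types, 13 were listed and 4 reached the limit of testing. Their summed level lay between 5.53 and 7.76 FPKM in every library, LYZ was the most abundant, and COL3A1, PTPRC and ADIPOQ were not listed in any table. LUM, a matrix gene of fibroblasts, was at 0.789 and 0.863 FPKM with shNT, 2.17 and 2.24 FPKM with shPcyt2-1, and 1.37 and 1.09 FPKM with shPcyt2-2. LUM rose by 0.81 with shPcyt2-1 (limma adjusted p = 0.00192). Of the 4 tested, 1 was called with shPcyt2-1, 0 with shPcyt2-2 and 1 between the hairpins (25%, 0% and 25%, beside 26.7%, 12.4% and 27.1% of all tested genes). The part of these marker changes in the values of the 39 genes was not tested, and in bulk RNA fewer cells of a type and less RNA per cell cannot be told apart.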

How the data were processed

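RNA-Seq was performed on SW480 cells with shNT, shPcyt2-1 or shPcyt2-2 (2 libraries each), with libraries made and sequenced by Novogene. The authors deposited 1 table per library of values above 0, read here from the values as FPKM (TPM over part of the genes cannot be told apart). The labels name 2 library kits without assigning them and list GRCh38, GRCm38 and mm10 as builds, without roles. The aligner and annotation are not given in the sources used here. The methods name a count-based test, which FPKM values do not allow, so limma was used.

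Rows of 115 repeated identifiers were summed and 1045 groups with identical values merged. Symbols and positions came from GENCODE release 29 (GRCh38), promoters from RefSeq (GRCh38.p14). Genes with a mean of at least 0.5 FPKM (12756) were fitted on log2(FPKM + 1) with limma 3.58.1 (R 4.3.3, mean-variance trend, Benjamini-Hochberg adjustment over all tested genes, threshold 0.05), after tests on simulated data. Single hairpins and their difference came from a fit with 3 groups, the pooled comparison from 2 groups. Exon overlap was computed from GENCODE without strand.

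The 39 genes and the other lists were chosen with earlier results of these data known. Given with every library were up to 5 higher and 5 lower of the 39 by size of change among called genes whose libraries did not overlap, and 10 genes of regulated steps. Up to 2 each way came from every other list, with 5 regulators. Alternatives covered pseudocount, expression limit, scaling, variance trend, repeated rows, replicate block, GC content and length, and leaving out each library. With a library left out, the lone library of its group was assumed to vary like the others. Figures were drawn with matplotlib 3.10.9.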

Additional observations from a re-analysis of the deposited data

Results flagged for a closer look

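In 10 of the 38 tested genes (26.3%, beside 27.1% of all tested genes) the response to the hairpins differed by a limma test of the difference itself (shPcyt2-2 minus shPcyt2-1, log2(FPKM + 1) scale, adjusted p under 0.05). The differences were -0.60 for PLIN2, -0.58 for ELOVL5 and -0.49 for GPAT4 on the lower side, and 0.27 for CPT2, 0.33 for HADHB, 0.34 for PNPLA2, 0.35 for ACSS2, 0.46 for LPCAT4, 0.47 for DGAT2 and 0.47 for ACSL1 on the higher side.

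Among the 4 knockdown libraries, 1 library stood apart from the other 3 in 3 of 40 genes examined. The rule flags about 1 in 20 genes by chance only where all 4 libraries are of 1 group. These libraries came from both hairpins, so that rate does not apply to genes that differ between the hairpins. The genes flagged were AGPAT1 at 5.49 FPKM in shPcyt2-2 replicate 1, AGPAT2 at 143 FPKM in shPcyt2-2 replicate 2, and LPIN3 at 2.66 FPKM in shPcyt2-1 replicate 1. For AGPAT1, 30.2% of exon bases overlap another gene, and 13.5% do for LPIN3.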

How the results depend on the processing

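No gene of the 39 that was called changed direction under any of the 14 alternatives. Calls that held under all 14 were ELOVL5, GPAT3 and ACADVL with shPcyt2-1, HADHB with shPcyt2-2, and ACSS2, ELOVL5, ACSL1, LPCAT4, DGAT2 and PLIN2 between the hairpins. The count with shPcyt2-1 was 14, 9 with no expression limit, and 6 to 12 with each library left out (26.7%, 9.38%, and 8.99% to 25.5% of all tested genes). With shPcyt2-2 it was 9, 1 with no expression limit, 4 without the variance trend, and 1 to 7 with each library left out (12.4%, 0.631%, 8.05%, and 0.98% to 14.8% of all tested genes). Over all genes, dropping the limit gave 1844 calls with shPcyt2-1 and 124 with shPcyt2-2, in place of 3400 and 1585. Between the hairpins the count was 10, 18 with the trend on GC content and length removed, and 6 to 10 with each library left out (27.1%, 37.1%, and 13% to 29.7% of all tested genes). That trend removed also brought PCYT2 between the hairpins to -0.21 (limma adjusted p = 0.0335, range over alternatives 0.0335 to 0.633). Removing it also moved the shPcyt2-1 values of HADHB, ACSL3, SCD and GPAM to 0.06, 0.14, 0.20 and 0.24. Calls gained by it with shPcyt2-1 were FASN, FADS2, ACSL5 and CPT1A, and with shPcyt2-2 PNPLA2. The pooled count of 0 became 12 as the mean of the hairpins. The cause of these changes was not tested, apart from the fewer libraries or other genes each fit held.

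Whether replicate numbers pair the samples is not stated in the sources used here. Deviations of same-numbered libraries correlated over genes at 0.0027 (shNT and shPcyt2-1), 0.0619 (shNT and shPcyt2-2) and 0.191 (shPcyt2-1 and shPcyt2-2). With the replicate number as a block, 14, 9, 13 and 0 of the genes were called with shPcyt2-1, with shPcyt2-2, between the hairpins and in the pooled comparison (30.4%, 15.9%, 30.3% and 0% of all tested genes). Without the block these were 14, 9, 10 and 0 (26.7%, 12.4%, 27.1% and 0.00784%). The depth in reads is unknown, so small differences in low genes such as GPAM and GPAT3 have no counting limit, and 2 libraries a group limit every value.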
